A study of Rattus norvegicus with 48 samples.

Results

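Both arms of 3 miRNA precursors, miR-22, miR-361 and miR-1839, were followed in rat blood plasma. These 6 mature miRNAs were chosen from the 645 in the count table because the arms of each hairpin parted over time after surgery: the level of one arm became lower while that of the other became higher. The contrasts of later weeks with baseline therefore chose the members and are given as a description, without a test. The comparison set was the 76 hairpins whose 5p and 3p arms both had a mean of 10 RPM (reads per 1000000 miRNA reads) or more, and the 3 hairpins are among them.

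Plasma came from 12 male rats, by the methods of the study Sprague-Dawley (its abstract names Wistar) and aged 12 weeks at surgery. All received a drilled round defect in the calvaria, the bone of the skull roof. Defects had been left empty or filled with a collagen-hydroxyapatite (CHA) scaffold, alone, with plasmid DNA for BMP2 and miR-590-5p, or with extracellular vesicles of mesenchymal stromal cells, and the treatment of each rat was not used here. By microcomputed tomography, the 6 rats with good and the 6 with bad healing were picked across treatments, unevenly, and are called strong and weak regenerators. Per the study, strong rats came from every treatment, while no weak rat had the scaffold alone. Treatment and regeneration group thus cannot be fully told apart. Blood of the tail vein was taken before surgery (baseline, week 0, when no rat yet had a defect) and at weeks 1, 4 and 8, which gave 48 samples, 6 rats per group and time point. The rats grew older over these weeks and all were operated, so time after surgery and age cannot be told apart. Each library held between 393259 and 1586398 miRNA reads (mean 856539), with a mean of 941540 at baseline and of 639129 at week 8.

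A miRNA gene is transcribed into an RNA that folds back on itself. For most miRNAs, the enzyme Drosha and then Dicer cut out a short duplex whose strands, the 5p and the 3p arm, come from either side of the loop. Usually an Argonaute protein keeps one strand, preferring the one whose 5′ end is less firmly paired, and the other is degraded. The retained strand finds its target mRNAs through the seed, bases 2 to 8. In plasma, miRNAs travel with Argonaute proteins and inside vesicles, and they come from blood cells, vessel walls, liver and other tissues, so that a change in the number of releasing cells and a change in the RNA released per cell cannot be told apart.

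The mature sequences are shown because the results turn on which strand of a hairpin was read. They were taken from RefSeq (assembly GRCr8), where all 6 members were found, and run 5′ to 3′ with the seed in capitals. The prefix rno-, for the rat, is left out of the names elsewhere.
rno-miR-22-5p: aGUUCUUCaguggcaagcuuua
rno-miR-22-3p: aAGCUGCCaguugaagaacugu
rno-miR-361-5p: uUAUCAGAaucuccagggguac
rno-miR-361-3p: cCCCCAGGugugauucugauucgu
rno-miR-1839-5p: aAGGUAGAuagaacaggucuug
rno-miR-1839-3p: aGACCUACuuaucuaccaacag
The 6 seeds differed from each other. No other miRNA among the 582 listed with a single RefSeq sequence had one of them, and the other listed miRNAs were not compared.

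In the hairpins, capitals mark the 2 arms and lower case the flanks and the loop, which shows how each pair of arms faces the other.
miR-22 hairpin: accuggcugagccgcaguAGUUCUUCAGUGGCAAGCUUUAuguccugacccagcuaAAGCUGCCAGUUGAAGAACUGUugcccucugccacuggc
miR-361 hairpin: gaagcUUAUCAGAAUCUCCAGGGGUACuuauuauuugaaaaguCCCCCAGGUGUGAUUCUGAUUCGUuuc
miR-1839 hairpin: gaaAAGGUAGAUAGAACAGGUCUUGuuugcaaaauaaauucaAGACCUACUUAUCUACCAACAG
Mir22 lay at chr10:60805331-60805425 on the plus strand, and the only other RefSeq gene within 1000 bases was Mir6326. Its 5p arm was at chr10:60805349-60805370 and its 3p arm at chr10:60805387-60805408. Mir361 lay at chrX:82438463-82438532 on the minus strand within the span of Chm, the gene of Rab escort protein, with its 5p arm at chrX:82438506-82438527 and its 3p arm at chrX:82438466-82438489. The miR-1839 hairpin was listed as Scarna15 at chr1:144893856-144893919 on the plus strand, a small Cajal body RNA whose human counterpart is known to be cut by Dicer into miRNA-like RNAs. Its 5p arm was at chr1:144893859-144893880 and its 3p arm at chr1:144893898-144893919.

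The hairpins did not have a common sequence layout beyond loops of 16 to 17 bases between the arms. The predicted duplex of the arms had 19 paired bases in miR-22 and 15 in each of miR-361 and miR-1839, with energies of -24.6, -21.4 and -19.4 kcal/mol. In miR-361 the first 4 bases held 0 G or C in the 5p arm and 4 in the 3p arm, in miR-22 they held 1 and 2, and in miR-1839 they held 2 in both. GC content was 45.5% in miR-361-5p against 54.2% in miR-361-3p and 40.9% in miR-22-5p against 45.5% in miR-22-3p. Both arms of miR-1839 had 40.9%.

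The members differed widely in level. miR-22-3p, a broadly expressed miRNA studied in heart and blood, was the most abundant of the 6 with a mean of 8893 RPM over the 48 samples, rank 24 of 645, while its partner miR-22-5p had 203 RPM. miR-361-5p, known to target the mRNA of the vessel growth factor VEGFA, had 533 RPM and miR-361-3p 160 RPM. miR-1839-5p had 301 RPM and miR-1839-3p 18.2 RPM, which rested on only 6 to 35 reads per sample. In miR-22 the 3p arm thus dominated in every sample and in miR-1839 the 5p arm, whereas miR-361 lay between. Reads of different miRNAs enter a library with different efficiency, so a level ratio between arms describes reads, and its movement between samples is the measurement used here.

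At week 8 the 3 5p arms were lower than at baseline and the 3 3p arms higher as shares of all miRNA reads. For miR-361-5p, the lowest, median and highest of the 12 rats were 505, 737 and 974 RPM at baseline, 363, 550 and 782 RPM at week 1, 384, 657 and 913 RPM at week 4, and 64.6, 180 and 342 RPM at week 8. For miR-361-3p they were 88.5, 120 and 166 RPM at baseline, 90.5, 125 and 192 RPM at week 1, 69.4, 113 and 159 RPM at week 4, and 186, 266 and 384 RPM at week 8. Neither arm of miR-361 had overlapping ranges at baseline and week 8, with the 5p arm lower and the 3p arm higher in 12 of 12 rats. Such a gap was seen for 43 of the 310 miRNAs with a mean of 10 RPM or more (13.9%). In weeks 1 and 4 the range of every member overlapped that of baseline (gaps in 0.645% and 1.29% of the 310).

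miR-22 also had a lower 5p and a higher 3p arm at week 8, with overlapping ranges. miR-22-3p had a lowest, median and highest level of 5201, 7455 and 14915 RPM at baseline, 5260, 7784 and 14211 RPM at week 1, 3813, 6957 and 11101 RPM at week 4, and 9063, 11928 and 19300 RPM at week 8. It was higher at week 8 than at baseline in 11 of 12 rats, and its ranges overlapped because 1 weak rat already had 14915 RPM at baseline. miR-22-5p had 148, 228 and 396 RPM at baseline, 145, 185 and 359 RPM at week 1, 126, 211 and 381 RPM at week 4, and 105, 139 and 219 RPM at week 8. It was lower at week 8 in 10 of 12 rats.

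miR-1839 moved in the same sense, with overlapping ranges in both arms. miR-1839-5p had 248, 309 and 419 RPM at baseline, 269, 307 and 360 RPM at week 1, 301, 356 and 420 RPM at week 4, and 158, 225 and 285 RPM at week 8, lower at week 8 than at baseline in 11 of 12 rats. miR-1839-3p had 6.80, 14.5 and 24.8 RPM at baseline, 8.06, 16.8 and 36.8 RPM at week 1, 6.95, 15.6 and 26.8 RPM at week 4, and 11.3, 24.0 and 36.9 RPM at week 8. It was higher at week 8 in 10 of 12 rats, but in reads it had a median of 12 at baseline and 13.5 at week 8, since the week 8 libraries were shallower.

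**Figure D1:**
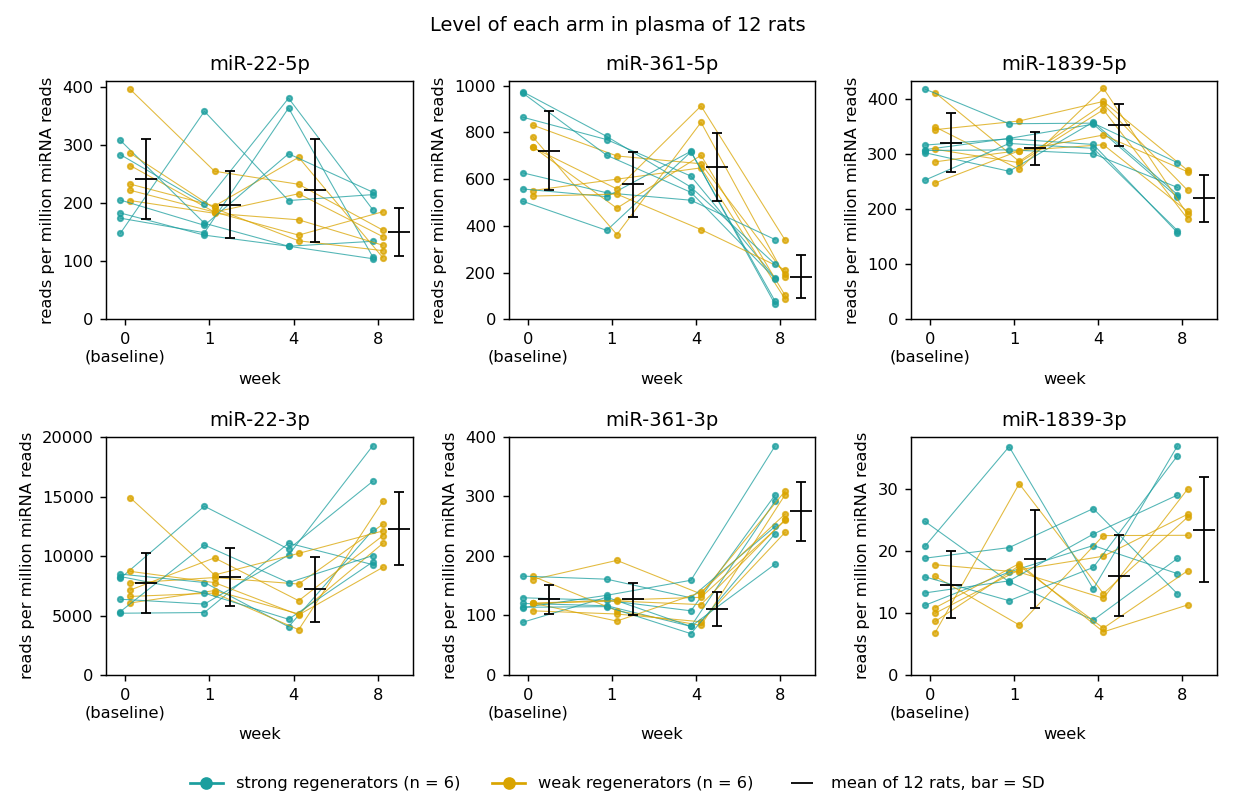
Level of each arm, in RPM on a linear axis from 0, at weeks 0 (baseline), 1, 4 and 8; lines join the samples of 1 rat, colours mark strong and weak regenerators (6 rats each), and black bars give mean and SD of 12 rats. Weeks 0 to 4 overlap in every panel, and at week 8 miR-361-5p lies between 64.6 and 342 RPM, below the 505 to 974 RPM of baseline, while miR-361-3p lies above its baseline range.

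In the edgeR fit across all miRNAs, the log2 fold change from baseline to week 8 was -1.91 (SE 0.20) for miR-361-5p and 1.17 (SE 0.13) for miR-361-3p. It was -0.62 (SE 0.16) for miR-22-5p and 0.75 (SE 0.15) for miR-22-3p, and -0.49 (SE 0.12) for miR-1839-5p and 0.77 (SE 0.25) for miR-1839-3p. As the choice of members fixes, all 6 were among the 250 miRNAs with an FDR under 0.05 (40.3% of 620 tested, 26.1% lower and 14.2% higher). The fits of the other weeks share the baseline samples with this one. At week 1 none of the 5 members that passed the abundance filter was called (21.6% of 232 tested), with miR-1839-3p below the filter, and at week 4 none of 6 was called (4.19% of 645 tested). The members' log2 fold changes ranged from -0.23 to 0.45 in week 1 and from -0.12 to 0.28 in week 4.

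These directions are relative to the pool of miRNA reads. UniSp2, a synthetic RNA added at extraction, gave a mean of 34.2 ± 5.61 reads per 1000 miRNA reads before surgery and of 39.8 ± 9.68, 41.9 ± 9.77 and 122 ± 18.5 in weeks 1, 4 and 8 (SD, n = 12). The 12 week 8 libraries (91.1 to 144) stood apart from the other 36 (23.3 to 60.4), so week 8 and this spike-in share cannot be told apart. The labels and the methods of the study give different plasma volumes for extraction, and the volume bears on this share and on every value scaled to it. Scaled to UniSp2 reads, the median of the 310 miRNAs with a mean of 10 RPM or more was -2.01 on the log2 scale at week 8, against -0.12 with the TMM scaling used above. With UniSp2 scaling the 3 3p arms turned from higher to lower, with log2 fold changes of -1.22 (SE 0.19) for miR-22-3p, -0.72 (SE 0.17) for miR-361-3p and -1.18 (SE 0.28) for miR-1839-3p. The 5p arms remained lower, at -2.56 (SE 0.20) for miR-22-5p, -3.76 (SE 0.24) for miR-361-5p and -2.37 (SE 0.16) for miR-1839-5p. Under this scaling the 5p arms were lower by more than the median miRNA and the 3p arms by less.

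**Figure D2:**
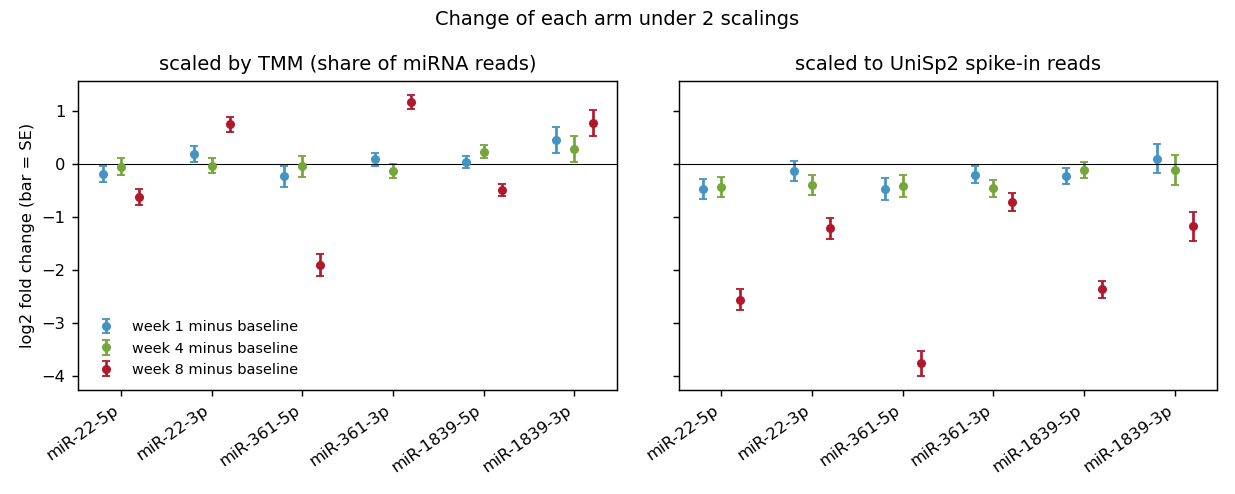
Log2 fold change of each arm from baseline to weeks 1, 4 and 8 (points, with bars for the SE) from the fit over all miRNAs, scaled by TMM on the left and to UniSp2 reads on the right. At week 8 the 3p arms lie above 0 on the left and below 0 on the right, and in both panels each 5p arm lies below its 3p arm.

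The ratio of 5p to 3p reads within a sample does not depend on either scaling. For miR-361 the lowest, median and highest ratio of the 12 rats were 3.35, 5.60 and 8.53 at baseline, 2.47, 4.85 and 6.80 at week 1, 2.75, 6.54 and 8.10 at week 4, and 0.261, 0.626 and 1.83 at week 8. The 5p arm had fewer reads than the 3p arm in 10 of 12 rats at week 8 and in 0 of 12 at each other time point. The arm with more reads thus switched in these 10 rats, though strong rat 29 was near a tie, with 234 and 235 reads. For miR-22 the ratios were 0.0217, 0.0332 and 0.0373 at baseline, 0.0141, 0.0253 and 0.0328 at week 1, 0.0228, 0.0320 and 0.0382 at week 4, and 0.00846, 0.0117 and 0.0214 at week 8. Here the 3p arm had more reads in all 48 samples, and its lead was larger at week 8. For miR-1839 they were 11.7, 24.3 and 48.1 at baseline, 8.49, 17.03 and 36.1 at week 1, 11.04, 20.9 and 52.7 at week 4, and 4.27, 10.004 and 22.6 at week 8.

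The 12 week 8 ratios of miR-361 all lay below those of the other 36 samples. This was so for 11 of 12 rats in miR-22 and for 5 of 12 in miR-1839. In miR-22 the exception was strong rat 29 with 0.0214, and the other week 8 samples reached at most 0.0132. Over the 76 hairpins, 4 (5.26%) had week 8 ratios entirely above or below all other samples, and 15 (19.7%) had week 8 and baseline ranges that did not overlap.

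**Figure D3:**
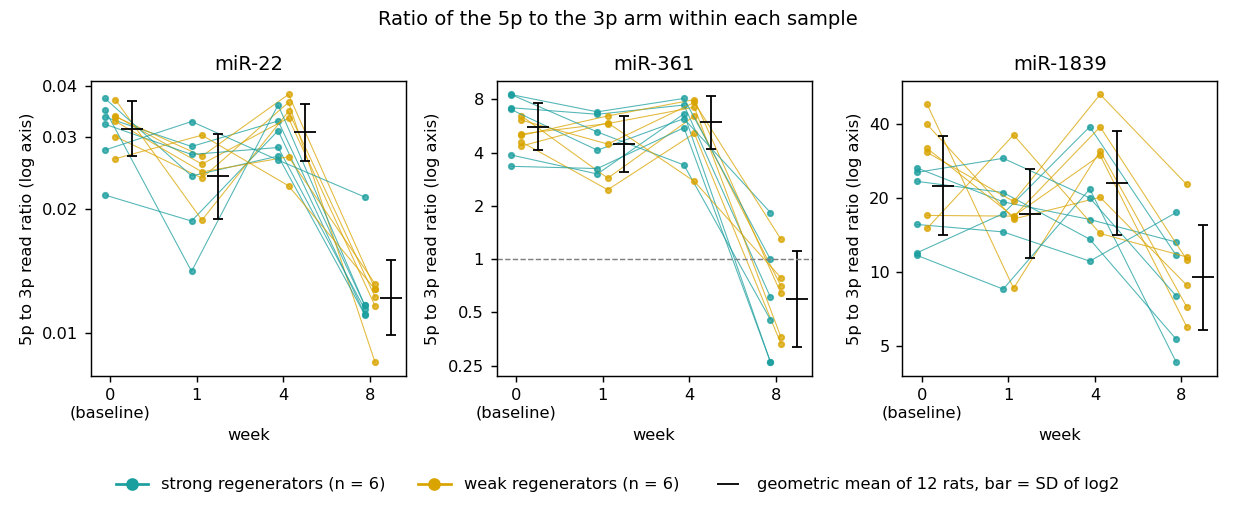
Ratio of 5p to 3p reads on a log axis at weeks 0 (baseline), 1, 4 and 8; lines join the samples of 1 rat, colours mark strong and weak regenerators (6 rats each), black bars give the geometric mean of 12 rats and the SD of the log2 ratio, and the dashed line marks equal reads of both arms. The miR-361 ratio lies above the dashed line in all samples before week 8 and below it in 10 of 12 rats at week 8.

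Within rats, the log2 ratio of miR-361 changed by a mean of -3.24 ± 0.72 (SD, n = 12) from baseline to week 8, a 9.43-fold shift toward the 3p arm that was seen in 12 of 12 rats. That of miR-22 changed by -1.37 ± 0.40, a 2.59-fold shift in 12 of 12 rats. That of miR-1839 changed by -1.24 ± 0.91, a 2.36-fold shift in 11 of 12 rats. Among the 76 hairpins, 28 (36.8%) moved in 1 direction in all 12 rats. At week 1 the ratios were also lower than at baseline, by a mean change of -0.39 ± 0.43 for miR-22 (lower in 10 of 12 rats), -0.32 ± 0.51 for miR-361 (9 of 12) and -0.38 ± 0.94 for miR-1839 (9 of 12). At week 4 they were back near baseline, with mean changes of -0.03, 0.08 and 0.04 (lower in 8, 5 and 7 of 12 rats).

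miR-361 had the most negative week 8 change of all 76 hairpins, followed by miR-30d at -2.92. miR-22 was at place 14, between miR-193a at -1.51 and miR-150 at -1.35, and miR-1839 at place 16, between miR-150 and miR-10b at -1.19. The members and the hairpins next to them in this order differed by less than their SD over rats. Not every neighbour had arms that parted: in miR-150 the log2 fold change was -1.52 for the 5p arm and -0.14 for the 3p arm, and in miR-10b -1.46 and -0.21. The median change over the 76 hairpins was -0.05, the range -3.24 to 2.54, with 40 hairpins lower and 36 higher. Arms called in opposite directions were found in 15 of 76 (19.7%), 10 with the 3p arm higher and 5 with the 5p arm higher, so shifts to the 5p arm also occurred. The median size of the change was 0.87 at week 8, against 0.26 at week 1 and 0.12 at week 4.

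**Figure D4:**
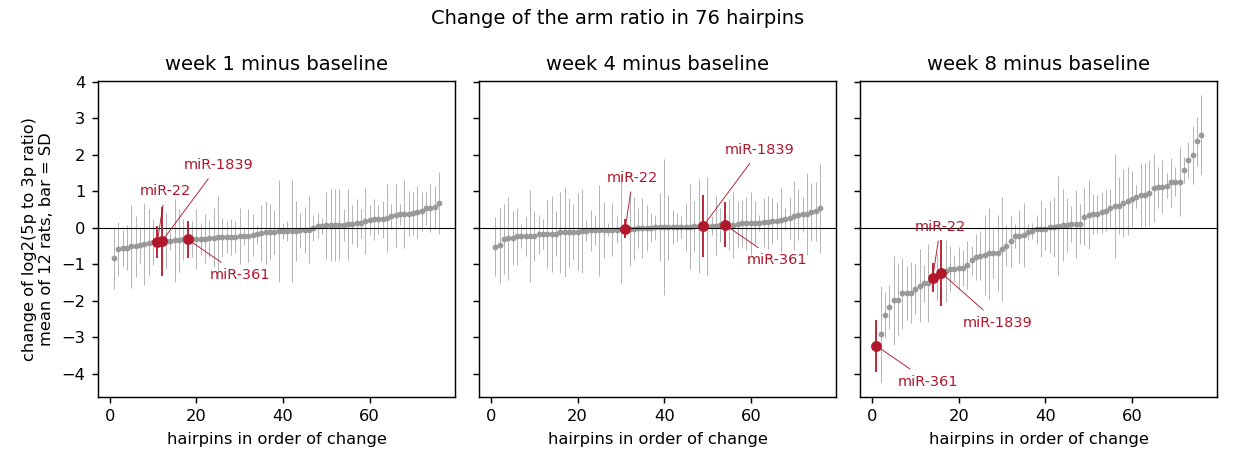
Change of the log2 ratio of 5p to 3p reads from baseline for 76 hairpins in order of the change at weeks 1, 4 and 8 (points give the mean of 12 rats, bars the SD), with the 3 hairpins in red. At week 8 miR-361 is the lowest point at -3.24, and miR-22 and miR-1839 are at places 14 and 16, while at week 4 all 3 are near 0.

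Strong and weak regenerators were compared because the study asked whether circulating miRNAs separate them, and this comparison played no part in the choice of members. No member was called. Over all time points the log2 fold change, strong against weak, was -0.02 (SE 0.11, edgeR FDR 0.970) for miR-22-5p, -0.01 (SE 0.10, edgeR FDR 0.997) for miR-22-3p and -0.04 (SE 0.14, edgeR FDR 0.946) for miR-361-5p. It was -0.11 (SE 0.09, edgeR FDR 0.758) for miR-361-3p, -0.10 (SE 0.08, edgeR FDR 0.736) for miR-1839-5p and 0.25 (SE 0.17, edgeR FDR 0.693) for miR-1839-3p. Of all 645 miRNAs 0 (0%) were called by edgeR, with 64 at an unadjusted p under 0.05, none of them a member, and DESeq2 called 0 miRNAs. The 4 samples of each rat entered these fits as if independent. The study itself reported miR-133a-3p as higher and miR-375-3p as lower in strong regenerators over all time points, at an FDR under 0.05. Why its calls differ from those here was not tested.

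At single time points no member was called, and none had an unadjusted p under 0.05. The background was 0% at baseline, week 1 and week 4, with 42, 32 and 25 of the 645 miRNAs at an unadjusted p under 0.05 in edgeR, and 0.155% at week 8, where the only call was miR-203b-3p, named after its values were seen (log2 fold change 2.13, SE 0.48, edgeR FDR 0.0223). At week 8 the 6 strong rats had 64.6, 176 and 342 RPM of miR-361-5p (lowest, median, highest) and the 6 weak rats 86.5, 189 and 339 RPM. For miR-361-3p they had 186, 271 and 384 RPM and 240, 266 and 309 RPM. The groups overlapped almost fully in both arms. miR-22-3p at week 8 was 12776 ± 4136 RPM in strong and 11884 ± 1833 RPM in weak rats (SD, n = 6), and miR-22-5p was 162 ± 52.6 RPM and 139 ± 28.3 RPM. miR-1839-3p at baseline, before any defect, was 17.4 ± 5.01 RPM in strong and 11.6 ± 4.29 RPM in weak rats, with ranges that overlapped.

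The arm ratios were also not called between the groups. The mean log2 ratio over the 4 time points differed by -0.03 for miR-22 (SE 0.08, 95% interval -0.19 to 0.14, exact permutation p = 0.734, adjusted 0.945). The difference was 0.05 for miR-361 (SE 0.25, interval -0.51 to 0.62, exact p = 0.840, adjusted 0.945) and -0.37 for miR-1839 (SE 0.20, interval -0.82 to 0.03, exact p = 0.0974, adjusted 0.780). Adjustment was over the 76 hairpins, of which 0 (0%) were called. The interval of miR-22 was narrow, and those of miR-361 and miR-1839 were wider.

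The shift to the 3p arm at week 8 was present in both groups. In miR-361 the log2 ratio changed by -3.40 ± 0.81 in strong and by -3.08 ± 0.66 in weak rats (SD, n = 6). The difference of the changes was -0.32 (interval -1.26 to 0.63, exact p = 0.459, adjusted 0.834). In miR-22 it changed by -1.29 ± 0.52 and -1.46 ± 0.26, a difference of 0.17 (interval -0.32 to 0.70, exact p = 0.522, adjusted 0.881). In miR-1839 it changed by -1.02 ± 0.92 and -1.46 ± 0.93, a difference of 0.44 (interval -0.82 to 1.66, exact p = 0.435, adjusted 0.834). None of the 3 differences was larger than the spread between rats, and 0 of 76 hairpins (0%) were called. Differences between the groups within these intervals were not rejected by the test.

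Across the 12 rats of a time point, the levels of both arms of miR-22 went together at baseline and week 4, and no such relation was called in miR-361 or miR-1839. For miR-22, Pearson's r of the log2 levels was 0.84 at baseline (permutation p = 0.0006, adjusted over 76 hairpins 0.00608), where Spearman's rho was 0.78 (permutation p = 0.00422, adjusted 0.0401) and r without the 2 rats farthest from the median was 0.65. At week 4, r was 0.92 (permutation p = 9e-05, adjusted 0.00274), rho was 0.90 (permutation p = 0.00017, adjusted 0.00646) and r without the 2 farthest rats was 0.88. At weeks 1 and 8 it was 0.58 and 0.66 (permutation p = 0.0577 and 0.0207, adjusted 0.146 and 0.0815, rho 0.77 and 0.58 with adjusted permutation p = 0.0526 and 0.181), and neither passed the threshold. Without the 2 farthest rats, r was 0.63 at week 1 and 0.82 at week 8. The relation was thus positive at every time point but called only at baseline and week 4, although the ratio of the arms moved with time.

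In miR-361, r between the arms was -0.02, -0.29, 0.07 and -0.27 in weeks 0, 1, 4 and 8 (rho -0.19, -0.41, 0.13 and -0.34, adjusted permutation p from 0.518 to 0.991). In miR-1839 it was -0.37, -0.18, -0.35 and -0.42 (rho -0.48, 0.04, -0.48 and -0.41, adjusted permutation p from 0.355 to 0.722). The background was positive: over the 76 hairpins the median r was 0.40, 0.47, 0.45 and 0.36 at weeks 0, 1, 4 and 8, and 26.3%, 21.1%, 14.5% and 17.1% of hairpins were called. The arms of a sample share a library and its total, which the test does not remove.

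**Figure D5:**
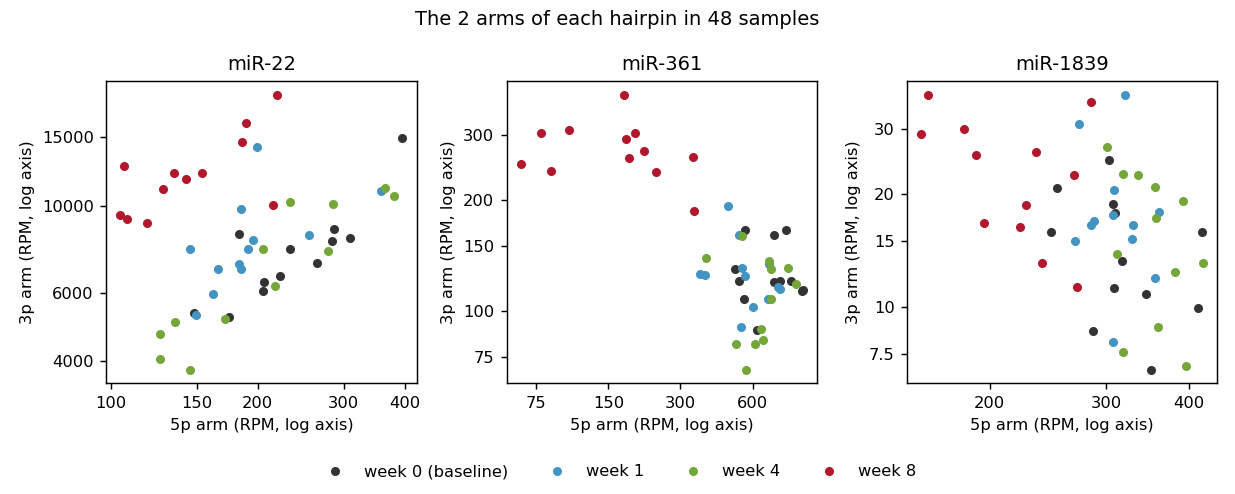
Level of the 3p arm against that of the 5p arm, both in RPM on log axes, for the 3 hairpins, with 1 point for each of 48 samples coloured by week. In miR-22 the points of each week form a rising band and week 8 lies above the others, in miR-361 week 8 is a separate cloud to the upper left, and in miR-1839 the weeks overlap.

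The spread of the ratio over rats exceeded counting error to different degrees. At week 8 the SD of the log2 ratio over rats was 0.90 for miR-361, against a counting error of 0.20, and 0.30 for miR-22, against 0.16. For miR-1839 it was 0.71 against 0.42, with 8 to 35 reads of its 3p arm in the week 8 samples. At baseline the SD was 0.23 for miR-22, 0.44 for miR-361 and 0.67 for miR-1839, with a median of 0.50 over the 76 hairpins. The ratios of the 3 hairpins had r between 0.69 and 0.89 with each other over the 48 samples and between 0.10 and 0.70 within single time points. These are descriptions over points that share libraries.

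No relation of an arm ratio to the UniSp2 share was called within any time point, among the members or among the 76 hairpins (0%). At week 8, r was 0.04 for miR-22, -0.31 for miR-361 and -0.53 for miR-1839 (rho -0.31, -0.38 and -0.56; permutation p = 0.926, 0.329 and 0.0808, adjusted 0.953, 0.699 and 0.434). At baseline that of miR-1839 had the opposite sign, 0.63 (rho 0.61, permutation p = 0.0297, adjusted 0.451). Without the 2 rats farthest from the median UniSp2 share, r of miR-1839 was -0.64 at week 8 and 0.76 at baseline.

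Markers of blood cells, liver and muscle were read in the same samples. Over all miRNAs tested, 14.2% were called higher and 26.1% lower at week 8. In either direction, 21.6% were called at week 1 and 4.19% at week 4. The week 8 set reached down to a mean of 0.036 RPM, far below most markers. Calls at week 8 were more frequent among miRNAs at a mean of 10 RPM or more, whose counts are given by first base further on. The 6 red blood cell miRNAs (such as miR-451-5p and miR-486) summed to 29.4% of miRNA reads at baseline (23.5% to 33.5% over rats) and 37.7% at week 8 (32.0% to 43.0%), with 3 of 6 called higher and 1 lower. They summed to 34.8% (25.4% to 44.1%) at week 1, with 5 of 6 called higher, and to 33.8% (26.8% to 43.7%) at week 4, with 0 called. The log2 ratio of miR-451-5p to miR-23a-3p is an index of red cell lysis. It was 2.15 ± 0.57 at baseline and 2.67 ± 0.71, 2.55 ± 0.60 and 2.95 ± 0.44 in weeks 1, 4 and 8 (SD, n = 12). The 5 platelet miRNAs (such as miR-223-3p) summed to 13.0% (10.2% to 16.4%) at baseline and 9.98% (6.90% to 12.7%) at week 8, with 2 of 5 lower. The list did not move as one. The week 8 log2 fold change was -0.91 for miR-21-5p, but 0.12 for miR-223-3p, 0.18 for miR-126a-3p and 0.03 for miR-191a-5p. The 4 liver miRNAs summed to 0.954% (0.437% to 1.39%) at baseline and 0.538% (0.357% to 1.14%) at week 8, with 2 of 4 lower and 1 higher. Of the 4 muscle miRNAs 0 were called at week 8 (0.233%, 0.0312% to 0.987%, at baseline and 0.333%, 0.0855% to 0.787%, at week 8). In weeks 1 and 4 the liver miRNAs summed to 1.05% and 1.15%, with 2 of 4 called higher at week 1 and 0 at week 4. The platelet miRNAs summed to 12.4% and 13.5% in these weeks and the muscle miRNAs to 0.127% and 0.306%, with 0 called. No marker was at 0 in all 12 samples of a time point. The red blood cell list holds both arms of miR-144, with week 8 log2 fold changes of 1.15 (5p) and -0.41 (3p). The platelet list holds miR-21-5p and the liver list miR-192-5p. The arms of these hairpins were also called in opposite directions at week 8, so the lists are not independent of such shifts. The part of the markers in the shift of the members' arms was not tested.

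Over the 48 samples, the hairpins whose ratio went most closely with that of miR-361 were miR-142 (r = 0.94), miR-30a (0.91) and miR-30e (0.91). Those of miR-22 were miR-30e (0.90), miR-30a (0.89) and miR-361 (0.89), and those of miR-1839 were miR-30a (0.76), miR-30d (0.75) and miR-10a (0.74). miR-30a was thus near all 3. By level, miR-361-5p was nearest to miR-30d-5p (0.89) and miR-674-3p (0.88), and miR-361-3p to miR-103-3p (0.88) and miR-532-5p (0.84). miR-22-3p was nearest to miR-221-3p (0.88) and miR-30a-3p (0.87), and miR-22-5p to miR-27a-3p (0.73) and miR-148a-3p (0.71). miR-1839-5p was nearest to miR-3559-5p (0.86) and to the member miR-361-5p (0.85), and miR-1839-3p to miR-15a-5p (0.62) and miR-301a-3p (0.62). The neighbours of every 5p arm were lower at week 8 and those of every 3p arm higher in the TMM-scaled fit, by log2 fold changes of -0.76 to -1.91 and of 0.48 to 1.19. These correlations carry the week 8 step that chose the members.

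Sequence features were set beside the week 8 shift as a description. Over the 63 hairpins of the 76 with both RefSeq sequences, r of the change in log2 ratio with the difference between the arms, 5p minus 3p, was 0.15 for GC content, 0.24 for length and 0.23 for the number of G or C in the first 4 bases. The arm richer in GC gained in 27 of 63 hairpins, with equal GC in 6, and in 8 of the 13 whose arms were called in opposite directions, with equal GC in 2. By first base, the median week 8 log2 fold change was -0.40 for the 117 miRNAs that begin with U (18 called higher and 54 lower), which include miR-361-5p alone of the members, and 0.17 for the 83 that begin with A (30 higher and 26 lower), which include both arms of miR-22 and of miR-1839. miR-361-3p begins with C, where the median of 55 miRNAs was -0.05 (12 higher and 20 lower).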

How the data were processed

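The authors deposited raw read counts of 48 plasma samples, with 645 mature miRNAs and 3 spike-ins of the extraction. Per the methods, the authors used single-adapter ligation libraries, cutadapt, bowtie and miRDeep2 against the rat genome Rnor_6.0 and the rat miRNAs of miRBase. The submitters' processing notes list FastQC 0.11.9, MultiQC 1.10, cutadapt 3.3, Bowtie 1.3.0 and the human build GRCh38.p12, a discrepancy that could not be settled here.

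Samples were grouped by animal and time point in their labels. The labels leave the regeneration group of baseline samples as unknown, so it was taken from the same animal. Samples with the same rat number are from 1 rat and are paired. Their deviations from the group means had a mean correlation of 0.107, against -0.01 for different rats. The rats are separate animals, and no 2 samples were copies of each other (chi-square per degree of freedom at least 23.0 over 1128 pairs).

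RPM were computed from the counts per 1000000 miRNA reads, with spike-ins left out of the total. Levels were tested on the counts with edgeR 4.0.16 in R 4.3.3 (TMM, the quasi-likelihood method of edgeR version 3, an independent filter on abundance as in DESeq2, Benjamini-Hochberg over all miRNAs, FDR under 0.05). Arm ratios were log2 values of reads plus 0.5 in each arm, compared by two-sided exact permutation of the 12 rats, whose smallest possible p is 0.00216. Their 95% intervals hold the differences that this test did not reject. Relations across rats used log2(RPM + 1) and 100000 permutations, two-sided. Counting errors cover counting only, as reads carried no molecular identifiers. Python 3.11.15, numpy 2.4.6, scipy 1.17.1, pandas 2.3.3 and matplotlib 3.10.9 were used. The tests were tested on simulated data.

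The members, the marker lists and the rules for naming were chosen with earlier results of these data known. Besides the members and markers, the text names the 3 hairpins with the most similar ratio, the 2 miRNAs with the most similar level and the neighbours in the week 8 order. It also names the miRNAs that the study called between the regeneration groups. Alternatives were library size, RLE or UniSp2 scaling, DESeq2 1.42.0, other filters, the rat as a block, samples of a rat summed, other pseudocounts and abundance minima, limma 3.58.1, and each rat left out. The treatment of each rat, bone volumes and histology were not analysed here.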

Additional observations from a re-analysis of the deposited data

Results flagged for a closer look

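In 8 of 72 groups of 6 rats, the highest or lowest rat stood far from the other 5, and chance gives about 1 such group in 20. For miR-22-5p at week 1, strong rat 29 had 359 RPM, with the next rat at 199.6 RPM, and weak rat 25 had 255 RPM, with the next at 195 RPM. For miR-22-3p at baseline, weak rat 25 had 14915 RPM, with the next at 8724 RPM. The ratio of 5p to 3p reads of miR-22 at week 8 was 0.0214 in strong rat 29, with the next at 0.0117, and 0.00846 in weak rat 3, with the next at 0.0116. For miR-361-3p at week 1, weak rat 16 had 192 RPM, with the next at 126 RPM. For miR-1839-3p at week 1, strong rat 21 had 36.8 RPM, with the next at 20.5 RPM. The miR-1839 ratio at week 8 was 22.6 in weak rat 26, with the next at 11.5. No explanation was tested for these values.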

How the results depend on the processing

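As the choice of members fixes, 6 of 6 members were called at week 8 under all alternatives (40.3% of all miRNAs tested in the main fit). Under all alternatives 0 members were called at weeks 1 and 4 (21.6% and 4.19% in the main fit). Between strong and weak regenerators no member and no ratio of the 3 hairpins was called under any alternative. With the rat as a replicate block, paired within animals, the week 8 log2 fold changes ran from -1.97 for miR-361-5p to 1.18 for miR-361-3p, 253 miRNAs were called at week 8, and the block changed no call of a member. Of 472 values recomputed with all rats, 449 were counted as kept in size or side of the threshold. For log2 fold changes from baseline at weeks 1 and 4, this count includes turned signs, none of them called. With UniSp2 scaling, the week 1 value turned from 0.195 to -0.131 for miR-22-3p and from 0.0885 to -0.198 for miR-361-3p. The week 4 value of miR-1839-3p turned from 0.277 to -0.107. The scaling to UniSp2 reads had the widest effect. It gave week 8 log2 fold changes of -1.22, -0.72 and -1.18 for miR-22-3p, miR-361-3p and miR-1839-3p, and it called 61 miRNAs at week 4 (27 with TMM), 499 at week 8 (250 with TMM) and 0 between the regeneration groups at week 8 (1 with TMM, 0 with DESeq2). At week 1, 32 miRNAs were called with library size and 25 without a filter, against 50. Over all time points, the strong against weak log2 fold change turned sign, never called, to 0.056 for miR-22-5p, 0.059 for miR-22-3p and 0.019 for miR-361-5p with library size, to 0.0042 with RLE and 0.0041 with DESeq2 for miR-22-3p, and to 0.050 for miR-22-3p and 0.0037 for miR-361-3p with the samples of a rat summed. The miR-1839 ratio difference at week 1 was 0.034 with a pseudocount of 5 reads, and limma called 1 hairpin, miR-3559, for the change to week 4. A minimum of 50 RPM gave no value for miR-1839.

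Without each rat in turn, the week 8 log2 fold changes lay between -2.03 and -1.75 for miR-361-5p and between 1.14 and 1.34 for miR-361-3p, and the following are the lowest and highest values. The miRNAs called were 24 and 47 at week 1 (fewer by over 1.5 times without strong rats 5, 17, 23 or 29 or weak rats 7, 16 or 25). Between regeneration groups they were 0 and 2 over all time points (2 without strong rat 2, 1 without strong rat 29 or weak rats 3 or 26), 0 and 1 at week 1 (1 without weak rat 26) and 0 and 1 at week 8 (0 without strong rats 2, 21 or 23 or weak rats 3, 6, 7, 16 or 26). The hairpins called for the change to week 4 were 0 and 7, with 7 without strong rat 5 and no member among them. The log2 fold change over all time points was -0.073 and 0.051 for miR-22-5p, -0.084 and 0.049 for miR-22-3p, and -0.11 and 0.041 for miR-361-5p. The difference in log2 ratio for miR-22 was -0.12 and 0.040 at baseline, -0.19 and 0.057 at week 1, -0.041 and 0.15 at week 8, -0.073 and 0.021 for the mean, and -0.15 and 0.16, -0.12 and 0.079, and -0.0081 and 0.27 for the changes to weeks 1, 4 and 8. For miR-361 it was -0.092 and 0.19 at week 1, -0.18 and 0.20 at week 4, -0.45 and 0.11 at week 8, -0.065 and 0.18 for the mean, and -0.32 and 0.0047 and -0.34 and 0.093 for the changes to weeks 1 and 4. For miR-1839 it was -0.23 and 0.19 at week 1, -0.39 and 0.033 at week 8, and -0.32 and 0.18 for the change to week 4. None of these was called, and the cause of each move was not tested. The 6 to 35 reads of miR-1839-3p per sample limit its values and those of its ratio.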
